A study of Mus musculus with 12 samples.

Results

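*Osr1* and *Osr2* are the odd-skipped related genes of the mouse, and both were looked up by symbol among the 54532 genes of a table of E14.5 limb libraries (2 of 2 found). They were chosen by their known place in joint development and with the difference of *Osr2* between the groups already seen in these data. Their levels in the comparison of the groups are therefore a description, with no test. *Osr1* (ENSMUSG00000048387) lies on the plus strand of mm10 chromosome 12, from 9570116 to 9581500. *Osr2* (ENSMUSG00000022330) lies on the plus strand of chromosome 15, from 35296098 to 35303305.

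Odd-skipped proteins are zinc-finger transcription factors named after a pair-rule gene of the fly, whose product represses target genes and recruits the corepressor Groucho. In the mouse limb, *Osr1* and *Osr2* are expressed in the mesenchyme between the cartilage elements and act redundantly in forming synovial joints. *Osr1* also marks connective tissue cells around developing muscle and is needed for the heart and the kidney. *Osr2* is best known for its part in growth of the palate and in restricting teeth to a single row.

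RNA was sequenced from sorted mesenchymal cells of E14.5 mouse limbs, 6 libraries in each of 2 groups. All embryos came from Prrx1-Cre males and females that carried a Cre-dependent (LSL) bovine Creb5-ires-GFP transgene on one copy of Rosa26 and LSL-tdTomato on the other. The iCreb5 cells carried Prrx1-Cre and expressed HA-tagged bovine Creb5, a CREB-family transcription factor, with GFP. The tdTomato cells carried Prrx1-Cre and expressed the red fluorescent protein tdTomato instead. Cre driven from Prrx1 recombines limb mesenchyme broadly, so both groups mix several cell types of that lineage and are not purified joint cells. The labels place 3 libraries of each group in litter 3 and 1 of each group in litters 4, 5 and 6. Batch labels follow the litters one to one, so the effects of litter and of batch cannot be told apart. The design text counts 6 litters. The labels do not say whether embryos were pooled, and each p-value reflects the spread over these 12 libraries only, which may be technical.

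Recovered depth was 9.02 to 53.3 M reads per library, and the shallowest library was tdTomato 3a. *Creb5* measured 2799 ± 214 in iCreb5 and 1803 ± 299 in tdTomato (normalised read counts, mean ± SD, n = 6), and the groups did not overlap. *Prrx1*, whose promoter drives Cre, measured 4158 ± 575 in iCreb5 and 4986 ± 943 in tdTomato, with overlap. The labels do not say whether reads of the bovine transgene were counted as *Creb5*. Markers of limb mesenchyme were present in every library, and of 12 only the hindlimb gene *Tbx4* passed the test (1.46-fold higher in iCreb5, limma adjusted p = 0.033). *Pitx1*, another hindlimb gene of the list, did not pass (log2 change 0.27 ± 0.22 SE, limma adjusted p = 0.573). The forelimb gene *Tbx5* had a log2 change of -0.04 ± 0.13 (SE). All 14 leukocyte markers were higher in iCreb5, with a summed level of 2807 to 12602 in iCreb5 and 829.6 to 1379 in tdTomato. Of 8 endothelial markers, 5 were higher in iCreb5, with sums of 1600 to 4154 against 1308 to 1963. For both lists the share over all genes tested was 3.87% higher. *Erg* went the other way without passing (log2 change -0.62 ± 0.18 SE, limma adjusted p = 0.0557). *Erg* is also a gene of the joint interzone list below, so its level need not be endothelial. *Emcn* and *Esam* did not pass either (limma adjusted p = 0.883 and 0.0535). None of these mesenchyme, leukocyte and endothelial markers was at 0 throughout.

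Both genes were well expressed, so counting error was small. *Osr1* was read 1043 to 7801 times per library and *Osr2* 1030 to 12664 times. In tdTomato 3a, where both were read least, the exact 95% Poisson interval was 2738 to 3094 for *Osr1* and 2703 to 3057 for *Osr2* in normalised read counts. Such intervals cover counting error only. The 2 annotated transcripts of *Osr1* and the 5 of *Osr2* share no identical stretch longer than 23 bases. The deposited table gives 1 value per gene, so isoforms could not be told apart.

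*Osr2* was higher in iCreb5. Its normalised read counts in iCreb5 were 5950, 6777 and 6407 in litter 3 (libraries 3a, 3b and 3c), 6650 in litter 4, 6049 in litter 5 and 6026 in litter 6. In tdTomato they were 2876, 3328 and 2903 in litter 3, 2881 in litter 4, 3000.2 in litter 5 and 3701 in litter 6. The lowest iCreb5 library lay above the highest tdTomato library, so the groups did not overlap. Among the 16733 genes tested, 2.83% had every iCreb5 library above every tdTomato library. The group means were 6310 ± 352 and 3115 ± 334 (n = 6), a ratio of 2.03. The log2 difference was 1.02 ± 0.09 (SE, on the log2(value + 1) scale), larger than that of 95.9% of the genes tested. In bulk RNA, a larger share of *Osr2*-expressing cells and more *Osr2* RNA per cell cannot be told apart.

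*Osr1* showed no such separation. In iCreb5 it measured 3174, 3700.4 and 3365 in litter 3, 3734 in litter 4, 3157 in litter 5 and 3182 in litter 6. In tdTomato the values were 2912, 3855 and 3216 in litter 3, 4001 in litter 4, 3251 in litter 5 and 4016 in litter 6. All 6 iCreb5 libraries lay within the range of the tdTomato libraries. The means were 3385 ± 268 and 3542 ± 473 (n = 6), and the log2 difference was -0.06 ± 0.11 (SE). Its sign depended on scaling, since with libraries rescaled to equal totals the log2 difference was 0.01, and it was 0.04 in litter 3 alone.

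**Figure D1:**
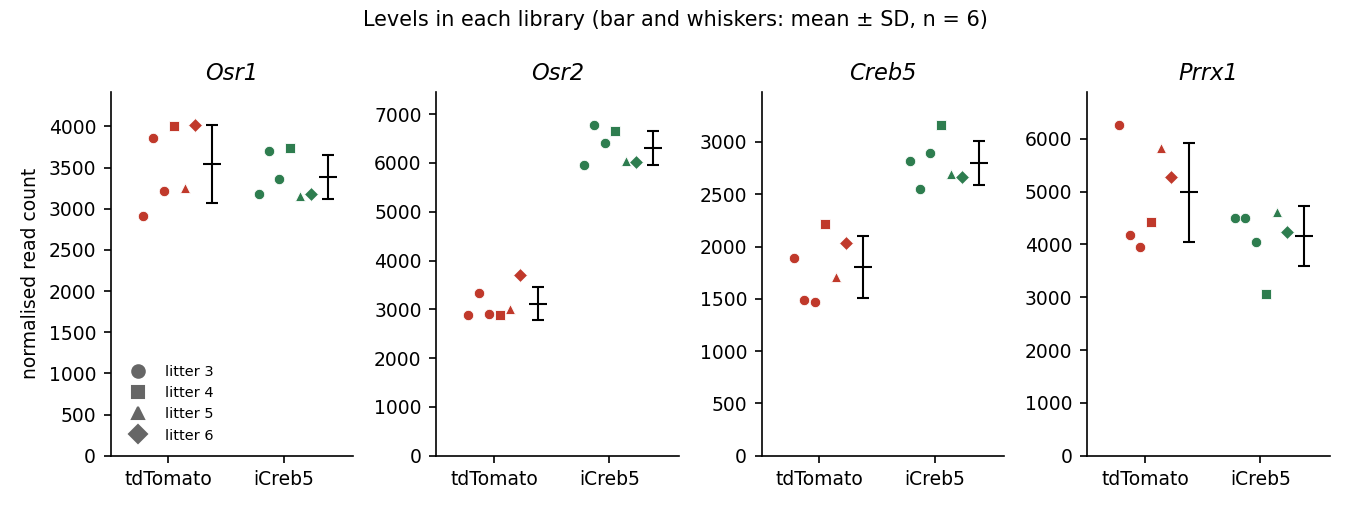
Normalised read counts (vertical axes, starting at 0) of Osr1, Osr2, Creb5 and Prrx1 in the 6 tdTomato and 6 iCreb5 libraries, with a symbol for each litter and black bars for mean ± SD (n = 6). Osr2 and Creb5 do not overlap between the groups, while the 6 iCreb5 values of Osr1 lie within the tdTomato range of 2912 to 4016.

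Compared per length, the genes stood at like levels in tdTomato cells and apart in iCreb5 cells. Levels were divided by the length of the longest annotated protein-coding transcript, 2012 bases for *Osr1* and 1724 bases for *Osr2*. Per kilobase, tdTomato libraries held 1760.4 ± 235 for *Osr1* and 1807 ± 194 for *Osr2*. The iCreb5 libraries held 1683 ± 133 for *Osr1* and 3660.1 ± 204 for *Osr2* (mean ± SD, n = 6). In tdTomato this placed *Osr1* above 90.6% and *Osr2* above 90.8% of the 14291 tested genes with such a length. In iCreb5 the shares were 90.5% and 96.4%.

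The ratio of *Osr2* to *Osr1* within a library does not depend on how libraries are scaled. Per kilobase, it ran from 0.840 (4a) to 1.15 (3a) in tdTomato, with a mean of 1.03 ± 0.11 (SD, n = 6). In iCreb5 it ran from 2.08 (4a) to 2.24 (5), with a mean of 2.18 ± 0.06 (SD, n = 6). The coefficient of variation of the ratio was 2.76% in iCreb5 and 10.2% in tdTomato. For *Osr2* alone it was 5.58% and 10.7%. Within litters, the iCreb5 ratio was 2.04 times the tdTomato ratio in litter 3, 2.47 times in litter 4, 2.08 times in litter 5 and 2.06 times in litter 6.

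**Figure D2:**
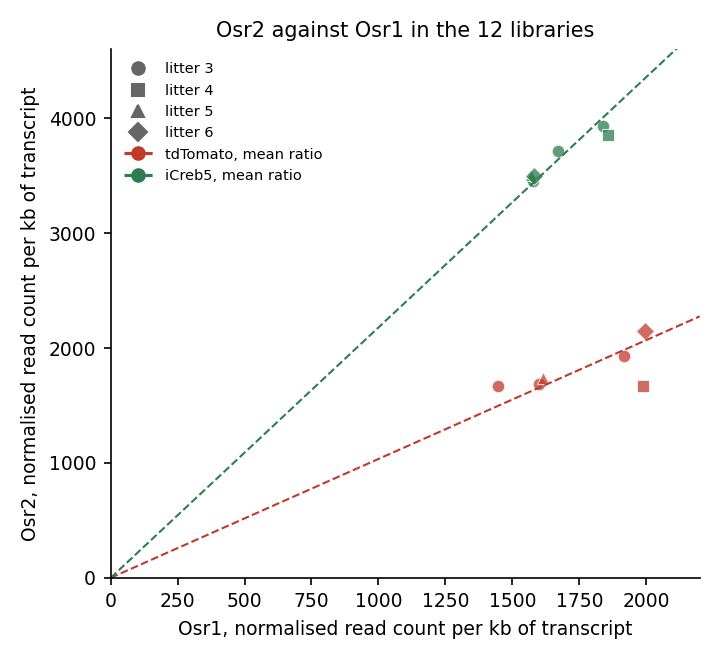
Osr2 (vertical axis) against Osr1 (horizontal axis), both as normalised read counts per kilobase of transcript, in the 12 libraries, with a symbol for each litter and dashed lines through the origin at each group's mean ratio. The iCreb5 libraries lie along a ratio of 2.18 and the tdTomato libraries along 1.03, over like ranges of Osr1.

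The spread of both genes between libraries of a group was narrow. The within-group SD of *Osr2* was 0.12 on the log2 scale, against a median of 0.23 for the 2149 tested genes with a mean level within 2-fold of its own, of which 93.1% varied more. For *Osr1* the SD was 0.16 against a median of 0.23 for 2916 such genes, of which 79.5% varied more. Leukocyte markers varied far more within iCreb5, with sums of 2807, 4081, 5436, 7289, 7510 and 12602 in 4a, 3b, 3c, 3a, 5 and 6. In that order *Osr2* measured 6650, 6777, 6407, 5950, 6049 and 6026. *Osr1* measured 3734, 3700.4, 3365, 3174, 3157 and 3182. Both genes were thus higher in each of 4a, 3b and 3c than in any of 3a, 5 and 6, and this relation to leukocyte RNA was not tested. Without iCreb5 5 and 6, which held the most leukocyte RNA, the log2 difference of *Osr2* was 1.05. Without iCreb5 4a, which held the least, it was 1.01. Every iCreb5 library held more leukocyte RNA than the highest tdTomato library (1379), so leaving libraries out cannot address its part. The part of leukocyte and endothelial RNA in the *Osr2* difference was not tested.

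Every litter had more *Osr2* in iCreb5. The ratio of iCreb5 to tdTomato was 2.10 in litter 3 (geometric means of 3 libraries), 2.31 in litter 4, 2.02 in litter 5 and 1.63 in litter 6. For *Osr1* the ratios were 1.03, 0.933, 0.971 and 0.792, and for *Creb5* they were 1.71, 1.43, 1.57 and 1.31. Litter 6 gave the lowest ratio of all 3 genes, and tdTomato 6d held the most *Osr1* and the most *Osr2* of its group. Litters 4, 5 and 6 have 1 library per group each, so their single ratios have no error of their own.

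Whether the change differed between litter 3 and litters 4 to 6 was tested as an interaction in limma with litter as a term. The genes were chosen with values of these same libraries known, so the test is not independent of that choice. For *Osr2* the log2 differences were 1.07 and 0.97, and their difference was -0.10 ± 0.18 (SE, adjusted p = 0.887). For *Osr1* they were 0.04 and -0.16, with a difference of -0.20 ± 0.19 (SE, adjusted p = 0.748). Of all 16733 genes, 0 (0%) passed this test and 1500 had an unadjusted p under 0.05. That is more than the share of 0.05 that chance alone would give, so the 0 does not show that the litter sets were alike. With 3 libraries per arm, a difference for *Osr2* of more than 1 standard error in either direction remains possible.

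**Figure D3:**
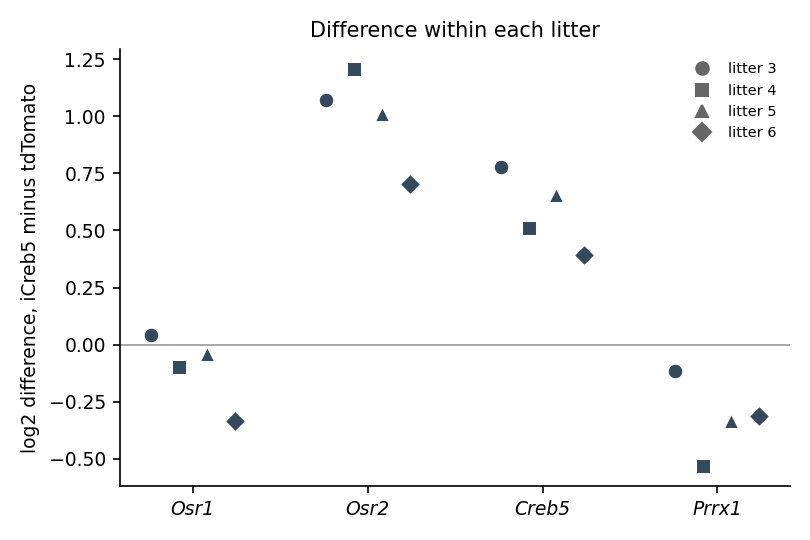
Log2 difference, iCreb5 minus tdTomato (vertical axis), of Osr1, Osr2, Creb5 and Prrx1 within each litter; litter 3 is a difference of means of 3 libraries per group and the other litters are 1 library against 1. Osr2 and Creb5 lie above 0 in all 4 litters, whereas Osr1 lies at 0.04, -0.10, -0.04 and -0.34 in litters 3, 4, 5 and 6.

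Within a group the contrast plays no part, and there *Osr1*, *Osr2* and *Creb5* were compared across libraries. Among the 6 iCreb5 libraries, *Osr1* and *Osr2* had a Pearson r of 0.97 (exact two-sided permutation p = 0.0139) and a Spearman rho of 0.77 (exact permutation p = 0.103). Adjusted over the 6 relations computed, these p-values were 0.0833 and 0.525 (exact permutation), so the relation did not pass. With libraries rescaled to equal totals, the adjusted exact permutation p for r was 0.0167. Without iCreb5 3b and 4a, the libraries farthest from the median, r was 0.96. Both genes were also higher in the iCreb5 libraries with less leukocyte RNA, whose part in this relation was not tested. Among the 6 tdTomato libraries r was 0.62 and rho 0.66 (exact permutation p = 0.217 and 0.175; adjusted 0.65 and 0.525), and r was 0.30 without tdTomato 3a and 6d.

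No relation of *Creb5* with either gene passed the test over these 6 libraries per group. With *Osr2*, its r was 0.18 in iCreb5 and 0.05 in tdTomato, and its rho was -0.03 and -0.14 (exact permutation p of 0.751 and 0.924 for r, 1 and 0.803 for rho). Adjusted, these were 0.902 and 0.924 for r, and 1 and 0.963 for rho. Without the 2 libraries farthest from the median of *Creb5*, r was 0.63 in iCreb5 (3b and 4a left out) and 0.19 in tdTomato (3c and 4a left out). With *Osr1*, its r was 0.30 in iCreb5 and 0.34 in tdTomato, and its rho was 0.26 and 0.54 (exact permutation p of 0.565 and 0.485 for r, 0.658 and 0.297 for rho). Adjusted, these were 0.848 in both groups for r, and 0.963 and 0.594 for rho. Left out in the same way, the r values were 0.77 and -0.12. Litter 3 holds 3 libraries of each group, too few for a value within a litter.

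Over all 12 libraries, the genes most like *Osr2* among 12412 abundant genes were *Dbx2* (r = 0.99), *Nefl* (0.99), *Rarres1* (0.98) and *Dok5* (0.98). *Dbx2* is a homeobox gene, *Nefl* encodes a neurofilament subunit and *Dok5* a docking protein of receptor tyrosine kinases. Their log2 differences between the groups ran from 1.53 for *Dok5* to 3.53 for *Dbx2*, so these likenesses carry the difference between the groups. With each group's mean subtracted, other genes led: *Rad51ap1* (0.90), *Atg4d* (0.84), *Irx5* (0.83) and *Nup50* (0.82). *Irx5*, a homeobox gene of limb patterning, measured 972 ± 111 in iCreb5 and 1060.4 ± 339 in tdTomato.

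For *Osr1* the genes most alike over the 12 libraries were *Nelfa* (r = 0.92), *Pth1r* (0.92), *Fbxw4* (0.85) and *Nkd1* (0.85). *Pth1r* encodes the receptor for parathyroid hormone and its related peptide, and *Nkd1* an inhibitor of Wnt signalling. With group means subtracted, *Pth1r* (0.93), *Nelfa* (0.92), *Fkbp4* (0.91) and *Zfp821* (0.91) led. The r of *Osr1* with *Osr2* was -0.05 over 12 libraries and 0.70 with group means subtracted, where *Osr1* ranked 53 of the genes most like *Osr2*. These values describe 12 libraries that share litters and scaling, and are given with no p.

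The genes beside each locus did not pass the test. *Stk3*, a kinase gene of the Hippo pathway 117 kb to one side of *Osr2*, had a log2 change of -0.03 ± 0.12 (SE) and an adjusted p of 0.942. For *Vps13b*, 67.9 kb to the other side, the change was 0.04 ± 0.26 (SE) on the log2 scale (adjusted p = 0.964). The nearest tested protein-coding genes of *Osr1* lay farther off, *Ttc32* at 528 kb and *Rdh14* at 809 kb, with log2 changes of -0.17 ± 0.22 and 0.00 ± 0.16 (SE, adjusted p = 0.766 and 0.997).

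Genes tied to the Odd-skipped pair were then read from 6 lists. The lists were chosen with earlier results of these data known, so their counts are a description. They were set against the whole table, in which limma called 1125 of 16733 genes (6.72%). Of these, 648 were higher in iCreb5 (3.87% of those tested) and 477 lower (2.85%). With libraries rescaled to equal totals, 67.7% of the calls were higher instead of 57.6%. Fitting litter as a replicate block gave 859 higher and 728 lower genes, but 511 and 402 when the libraries of litter 3 were first averaged. In litters 4 to 6 alone, 320 were higher and 368 lower (46.5% higher). The median log2 change of all genes tested was 0.00.

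The joint interzone is the band of cells between future bones where joints form. Its list is not confined to markers of that band and shares *Col2a1* with the cartilage list. Among the 23 tested of 24, iCreb5 had 5 higher and 2 lower genes, and 16 missed the threshold; the median log2 change was 0.10. With the replicate block 4 were lower, and 2 when litter 3 was averaged under that block. The lubricin gene *Prg4* rose from 85.4 ± 31.2 to 908 ± 245 (n = 6, adjusted p = 7.96e-07), and the ligand gene *Wnt16* rose from 46.6 ± 12.5 to 292 ± 58.3 (adjusted p = 1.65e-06). *Barx1*, a homeobox gene, fell from 351 ± 72.3 to 122 ± 41.6 (adjusted p = 0.000583). The other calls were *Gdf6*, *Sfrp2*, *Ebf1* and, lower, *Col2a1*, and *Gdf6* missed the threshold when iCreb5 3b was left out (adjusted p = 0.0540). The most abundant members not past the threshold were *Jun* and the sulfatase gene *Sulf1*, with log2 changes of 0.10 ± 0.14 and 0.22 ± 0.22 (SE). *Wnt4* and *Gdf5*, classical interzone genes named here after their values were seen, had log2 changes of -0.32 ± 0.21 and 0.16 ± 0.13 (SE, adjusted p = 0.485 and 0.585). *Erg*, also of this list and named in the same way, had a log2 change of -0.62 ± 0.18 (SE, limma adjusted p = 0.0557). It passed as lower with the replicate block (adjusted p = 0.0476), in edgeR (adjusted p = 0.0445) and in DESeq2 (adjusted p = 0.00817).

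*Osr2* acts in the palate and the tooth bud with a set of mesenchymal regulators, which formed the next list. Of 24, all tested, 7 were higher, 2 were lower and 15 did not pass, with a median log2 change of 0.30. The palate T-box gene *Tbx22* rose from 23.2 ± 16.6 to 687 ± 177 (n = 6, adjusted p = 7.61e-07). *Dkk2* and *Sfrp2*, secreted Wnt modulators of tooth mesenchyme, were 1.58-fold and 1.45-fold higher (adjusted p = 0.000412 and 0.00216). *Meox2*, *Foxf2*, *Sema3a* and *Inhba* were also higher, by 2.26-fold, 2.06-fold, 1.78-fold and 1.35-fold. The call of *Inhba*, an activin subunit gene, was lost when any library but tdTomato 3b was left out (adjusted p up to 0.109). *Barx1* was among the lower genes. *Pax9* and *Msx1*, which act with *Osr2* in tooth and palate and are named here after their values were seen, had log2 changes of 0.15 ± 0.20 and -0.60 ± 0.23 (SE, adjusted p = 0.77 and 0.171). With the replicate block, *Msx1* passed as lower (adjusted p = 0.0386) and the growth factor gene *Fgf10* as higher (adjusted p = 0.0200). The most abundant members not past the threshold were *Wnt11* (0.32 ± 0.14) and *Tgfb3* (0.07 ± 0.19).

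*Osr1* marks muscle connective tissue and fibro-adipogenic progenitors, cells that support muscle growth. All 25 genes of these cells were tested: iCreb5 had 3 higher and 1 lower, and 21 missed the threshold, with a median log2 change of -0.15. *Meox2*, a homeobox gene, rose from 3636 ± 494 to 8188 ± 898 (n = 6, adjusted p = 8.38e-06). *Cd34* and the bHLH factor gene *Tcf4* were 1.44-fold and 1.41-fold higher (adjusted p = 0.0151 and 0.0209), and the call of *Tcf4* was lost without iCreb5 3a, iCreb5 3c or tdTomato 3a (adjusted p up to 0.0535). *Tcf7l2*, whose protein is the muscle connective tissue marker often called TCF4, is another gene and did not pass (0.25 ± 0.13, adjusted p = 0.338; named after its values were seen). The surface protein gene *Ly6e* was lower at 2270 ± 398 against 3303 ± 653 (adjusted p = 0.0261), a call lost without iCreb5 3a, 3b, 3c or 4a (adjusted p up to 0.0667). Without tdTomato 3a and 5b, 1 was higher and 0 lower. *Cd34* and *Tcf4* are also expressed by endothelium, of whose markers 5 of 8 were called higher in iCreb5. The part of those cells was not tested. The most abundant members not past the threshold were the matrix genes *Col3a1* (0.18 ± 0.21) and *Postn* (0.52 ± 0.19), and *Postn* passed with the replicate block (adjusted p = 0.0251).

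*Osr1* also acts with a set of intermediate mesoderm and kidney progenitor genes, several of which are expressed in limbs. Of 22 such genes 19 were tested, 4 were higher, 3 were lower and 12 did not pass, with a median log2 change of -0.16. *Hoxd11* rose from 245 ± 51.9 to 628 ± 65.2 (n = 6, adjusted p = 6.81e-05). The homeobox gene *Six2* was lower, at 823 ± 84.2 against 1374 ± 288 (adjusted p = 0.0037). *Meox1* and *Hoxa11* were 1.66-fold and 1.45-fold higher in iCreb5. *Wt1*, a zinc-finger gene of kidney and mesothelium, was low throughout, with a mean of 7.94 ± 4.45 in iCreb5 against 32.0 ± 20.4 (adjusted p = 0.0311), a call lost in 6 of the 12 sets that leave out 1 library. *Fgf8* was also low, at 6.93 ± 1.83 against 27.4 ± 18.7 (adjusted p = 0.0192). Its iCreb5 values were at most 9.11, below the level required for testing, and its tdTomato values were at least 12.4. *Fgf8* thus entered the test through its tdTomato libraries only. Its selection was not independent of the difference, and its adjusted p cannot be taken at face value. With no filter on low values, 1 gene of this list was lower instead of 3. The kidney genes *Pax2*, *Pax8* and *Lhx1* were too low to test, and *Pax2* was listed at 0 in every library. Without tdTomato 5b, 5 genes were lower, with *Eya1* and *Foxc1* added, and *Eya1* also passed with the replicate block (adjusted p = 0.0190). The most abundant members not past the threshold were *Foxc1* (-0.36 ± 0.13) and *Itga8* (0.18 ± 0.15).

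Cartilage borders the interzone, and *Osr1* and *Osr2* are largely expressed outside it. Of 24 cartilage genes, all tested, 22 were lower in iCreb5 and 0 higher, with a median log2 change of -1.52. *Ucma* fell from 125 ± 35.9 to 20.3 ± 7.82, *Cytl1* from 7014 ± 2210 to 1598 ± 292 and *Chad* from 3106 ± 807 to 747 ± 257 (n = 6, adjusted p = 3.74e-05, 2.73e-06 and 1.7e-05). All 3 encode secreted proteins of cartilage. *Sox6* and *Nkx3-2*, the 2 members not past the threshold, had log2 changes of -0.61 ± 0.19 and 0.16 ± 0.26 (SE). The share of cartilage RNA thus differed between the groups in which *Osr2* differed, and its part in the *Osr2* difference was not tested. *Osr1* overlapped between the groups in the same libraries, and the part of cartilage RNA in its level was not tested either.

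Of the 6 Groucho-family corepressor genes, all tested, 1 was higher and 5 did not pass, with a median log2 change of 0.24. *Tle1* rose from 2072 ± 282 to 3322 ± 319 (n = 6, adjusted p = 0.000954), with no overlap between the groups. *Tle5*, the most abundant, and *Tle2* had log2 changes of 0.14 ± 0.10 and 0.10 ± 0.15 (SE).

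**Figure D4:**
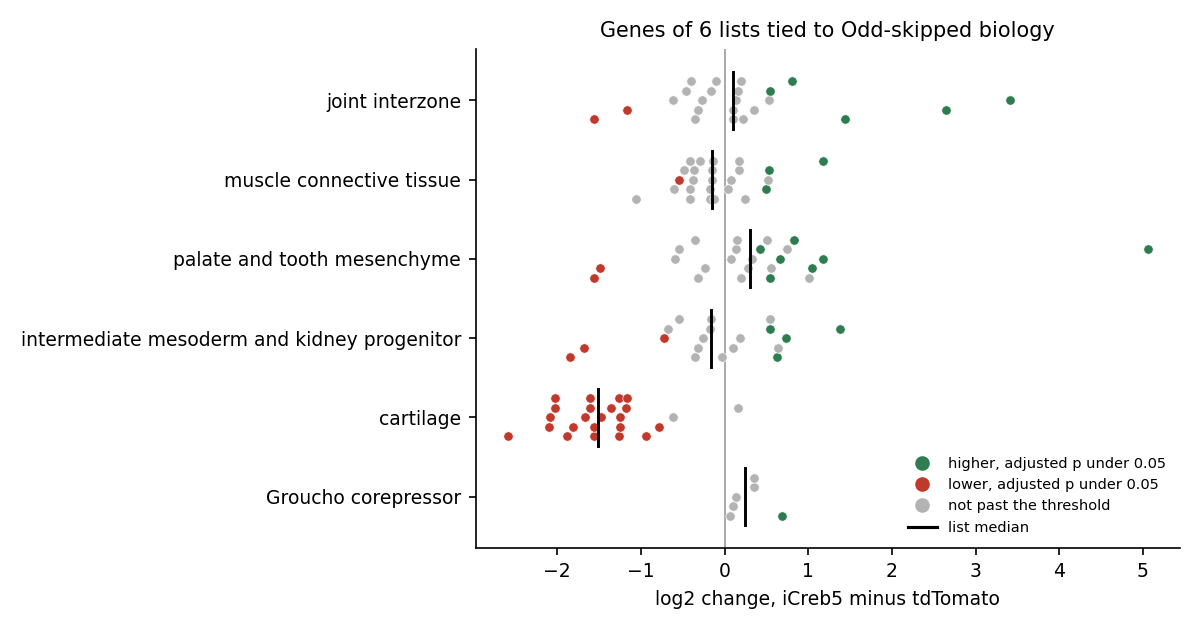
Log2 change, iCreb5 minus tdTomato (horizontal axis), of each tested gene of 6 lists (vertical axis, points offset for legibility), coloured by the limma call at adjusted p under 0.05, with a black bar at each list's median. The cartilage list has its median at -1.52 and 22 of 24 genes called lower, while the other 5 medians lie between -0.16 and 0.30; Tbx22 is the point farthest to the right.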

How the data were processed

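The authors deposited normalised signal per gene for 12 E14.5 libraries. FastQC, STAR, Salmon, DESeq2 and the build mm10 are named in the submitters' processing notes, without versions or roles; they do not state strand use. Within each library all values were multiples of the worth of 1 read, and dividing by it gave whole reads for 100% of values within 1e-06. All 12 columns were matched to samples by title. Another table (P0) was not used, because none of its 8 columns could be tied to a labelled sample. Symbols, positions and transcript lengths came from GENCODE M21 (mm10), which matched 54409 of 54532 IDs.

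The comparison used limma 3.58.1 (R 4.3.3; trend, two-sided) on log2(value + 1), which understates changes of weak genes. Genes reaching 10 in 6 or more libraries were tested (16733), with Benjamini-Hochberg adjusted p under 0.05 as threshold for every adjusted p given. edgeR 4.0.16 and DESeq2 1.42.0 were run on recovered reads as alternatives. Fits were tested on simulated data. The labels give the litter, which pairs the samples. Deviations of same-litter libraries from their group means had correlations of 0.154 (litter 4), 0.346 (litter 5), 0.00 (litter 6) and 0.129 (litter 3, means of 3 libraries).

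The members, lists and tests were chosen with earlier results of these data known. Named genes are the pair, *Creb5* and *Prrx1*, up to 3 called members of each list with the largest change, the 2 most abundant not called, the 4 genes most like each member, and the nearest tested neighbours. Other genes named complete counts or were chosen after their values were seen. Values of some list members are not reported here.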

Additional observations from a re-analysis of the deposited data

Results flagged for a closer look

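In 64 groups of 6 libraries, covering 31 genes and the ratio of *Osr2* to *Osr1*, 2 held a library far from the others, where chance gives about 1 in 20. None was a value of *Osr1*, *Osr2* or *Creb5*. *Ly6e* measured 4595 in tdTomato 5b, where the next highest tdTomato library had 3168. *Fgf8* measured 64.2 in tdTomato 3a, the shallowest library, where the next highest tdTomato library had 27.4. Both genes passed the test without that library.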

How the results depend on the processing

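The log2 difference of *Osr2* lay between 0.97 and 1.09 in 25 other settings and that of *Osr1* between -0.16 and 0.04. With 1 library left out at a time, *Osr1* lay between -0.11 and -0.02. The interaction with litter set did not pass for either gene in 16 settings (adjusted p from 0.734 to 0.975). Of all genes, 395 were higher and 292 lower in litter 3 alone, 320 higher and 368 lower in litters 4 to 6 alone and 728 lower with the replicate block, which also gave 4 lower interzone genes. Kidney progenitor counts were 2 higher and 0 lower in litter 3 alone, 1 higher and 0 lower in litters 4 to 6 alone, 1 lower with no filter and 2 to 5 lower with 1 library left out. Palate counts were 1 lower in litter 3 alone. Muscle connective tissue counts were 1 higher and 5 lower in litters 4 to 6 alone and 0 to 1 lower with 1 library left out. Alternatives chosen after seeing the data left out tdTomato 3a and 5b (muscle connective tissue 1 higher, 0 lower) or iCreb5 5 and 6 (2 lower, and 1 palate gene lower), or averaged litter 3 under the replicate block (511 genes higher and 402 lower; muscle connective tissue 5 lower, palate 4 lower, interzone 2 lower, kidney 2 higher). The r of *Osr1* and *Osr2* in iCreb5 was 0.97 at equal totals (adjusted exact permutation p = 0.0167), and that of *Creb5* and *Osr1* in tdTomato was -0.12 without 2 libraries. The cause of these moves was not tested, apart from fewer libraries or genes.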

Other observations

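Of 8 tested muscle, 4 tested red cell and 6 tested epidermal markers, 0 were called in either direction by limma. Over all genes tested the share called was 6.72%, with 2.85% lower. Of 6 tested Schwann cell and melanoblast markers 1 was lower in iCreb5, *Sox10*, at 49.8 ± 20.1 against 169 ± 45.8 (n = 6, adjusted p = 0.00242). Of 4 tested neuronal markers 1 was lower, *Stmn2*, at 68.2 ± 22.6 against 211 ± 47.2 (adjusted p = 0.000283). The summed red cell level ran from 1177 to 20236 over the 12 libraries and was highest in tdTomato 5b and iCreb5 5, both of litter 5, where *Osr2* measured 3000.2 and 6049.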
